A study of Homo sapiens with 4 samples.

Results

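The iron and lipid genes of ferroptosis described here are TFRC, FTH1, FTL, ACSL4, LPCAT3 and AIFM2, and the data are ATF3 peaks around them in SW480, a colorectal cancer cell line. Peaks of 4 lists that shared at least 1 bp were merged, and every merged region within 20 kb of 1 of these 6 genes (hg19) was taken, whatever its height, which gave 26 of the 44826 regions on chromosomes 1 to 22 and X. ATF3, a stress-induced transcription factor, was mapped by CUT&Tag, in which an antibody directs a transposase to the bound chromatin. Cells that had spent 24 h in cystine-restricted medium (CR, 2 libraries) were set against cells that had spent the same time in full medium (FM, 2 libraries). All libraries came from the same line, grown in 1640 medium with serum and antibiotics, and the labels name no genetic change or drug.

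Ferroptosis is a form of cell death in which iron drives the peroxidation of membrane phospholipids. Cystine is the imported form of cysteine, and without it cells run short of glutathione, the cofactor with which GPX4 removes lipid peroxides. Iron enters through the transferrin receptor, encoded by TFRC, and is stored in ferritin, a shell of heavy (FTH1) and light (FTL) chains. ACSL4 activates polyunsaturated fatty acids and LPCAT3 places them in phospholipids, which supplies the lipids that peroxidise. AIFM2, also called FSP1, reduces ubiquinone at the membrane and thereby traps lipid radicals.

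Peaks were listed over the hg19 starts of TFRC and LPCAT3, and not over those of the other 4 genes, so promoters of both kinds are shown. RefSeq promoters (GRCh38.p14) were found for 5 of the 6 genes, and FTH1 had none in the table. The 250 bases before the start are printed 5′ to 3′ for the TFRC promoter (chr3:196082091-196082340, minus strand), the LPCAT3 promoter (chr12:7018477-7018726, minus strand), the AIFM2 promoter (chr10:70132826-70133075, minus strand) and the ACSL4 promoter (chrX:109733258-109733507, minus strand), with matches to the motifs named after them in capitals.
TFRC: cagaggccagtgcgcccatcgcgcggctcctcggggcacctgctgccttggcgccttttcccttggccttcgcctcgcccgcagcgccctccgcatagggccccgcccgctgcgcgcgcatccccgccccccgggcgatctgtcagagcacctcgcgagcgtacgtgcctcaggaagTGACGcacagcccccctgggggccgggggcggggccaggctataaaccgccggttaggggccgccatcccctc
LPCAT3: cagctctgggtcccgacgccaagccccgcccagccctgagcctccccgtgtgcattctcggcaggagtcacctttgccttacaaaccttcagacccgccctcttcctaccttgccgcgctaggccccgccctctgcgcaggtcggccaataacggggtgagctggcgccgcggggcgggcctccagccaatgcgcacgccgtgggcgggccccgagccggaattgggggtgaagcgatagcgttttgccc
AIFM2: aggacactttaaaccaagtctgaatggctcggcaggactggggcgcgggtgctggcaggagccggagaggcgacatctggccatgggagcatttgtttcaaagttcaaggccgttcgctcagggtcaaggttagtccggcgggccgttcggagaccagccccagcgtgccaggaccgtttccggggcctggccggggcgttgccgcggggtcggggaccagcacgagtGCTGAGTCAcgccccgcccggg
ACSL4: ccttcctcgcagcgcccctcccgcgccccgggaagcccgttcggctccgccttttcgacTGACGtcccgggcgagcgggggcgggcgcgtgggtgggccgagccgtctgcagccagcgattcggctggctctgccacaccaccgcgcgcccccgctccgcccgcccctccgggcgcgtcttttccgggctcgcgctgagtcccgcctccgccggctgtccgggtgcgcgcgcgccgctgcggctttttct

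Motifs of ATF3 and other bZIP factors were searched on both strands. These were TGACGTCA (the CRE), TGACG (its first bases, also found within it), TGANTCA (AP-1), TGATGNAA (C/EBP-ATF) and TGACNNNGC (NRF2), which occurred in 1.65%, 21.2%, 6.57%, 3.14% and 10.9% of 35116 RefSeq promoters cut to the same 250 bases. The TFRC promoter held TGACG 73 to 69 bases before the start, and the ACSL4 promoter held it 191 to 187 bases before. In the AIFM2 promoter TGAGTCA, an AP-1 match, stood 20 to 14 bases before the start, inside an NRF2 match on the other strand. The LPCAT3 and FTL promoters held none of these words in this window. TFRC thus had both a peak over its hg19 start and such a word before its GRCh38 start, and LPCAT3 had the peak alone. ACSL4 and AIFM2 had the word without a peak over the start, and FTL had neither. The nearest peaks of ACSL4 and AIFM2 lay 0.638 and 0.517 kb inside the gene, each listed in a single CR library. The starts of hg19 and GRCh38 were not matched to each other. The printed bases of any gene, LPCAT3 included, may therefore lie outside the peak named for it. The share of all promoters with any of these words was not counted.

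The genome-wide background pileup, the number of tags expected at any position, was 1.30 and 1.08 in CR replicates 1 and 2 and 1.11 and 1.32 in FM replicates 1 and 2. Heights are given as the pileup at a peak's summit divided by this background, so that a height of 10 means 10 times the genome average. The whole lists held 33838 and 29607 peaks in CR and 17447 and 19132 in FM. The libraries measure bulk cells, and a larger share of cells with ATF3 at a site cannot be told apart from more ATF3 per cell. The labels name the libraries of a medium only as separate samples, so that p-values measure only how these samples vary, and that variation may be technical. Peak lists carry no expression, and the identity of the line was not analysed here.

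Of the 26 regions, 10 had a peak in all 4 libraries (38.5%, against 23.0% of all regions), 3 were gained, that is listed in both CR and in neither FM library (11.5%, against 12.7%), and none was lost, the reverse class (0.386% of all regions). Another 9 were listed in a single library (34.6%, against 46.4%), 6 of them in CR replicate 1, 2 in CR replicate 2, 0 in FM replicate 1 and 1 in FM replicate 2. The gained share was thus close to that of all regions. By position, 2 regions spanned a gene start, 7 lay inside a gene, 7 upstream and 10 beyond a gene's end. The number per gene was 6 at FTH1, 5 each at TFRC and LPCAT3, 4 at AIFM2 and 3 each at FTL and ACSL4.

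The 6 loci together had 23 and 19 peaks in the CR libraries, against 12 and 19 in the FM libraries. The means were 21.0 ± 2.83 in CR and 15.5 ± 4.95 in FM (SD, n = 2 each), a ratio of 1.35, against 1.73 for all peaks. The media overlapped, since FM replicate 2 had as many peaks as CR replicate 2. A two-sided exact permutation test gave p = 0.667, and 2 libraries against 2 can give no p under 0.333. Some regions held more than 1 peak of a library. Counted as regions with a peak, the loci had 23 and 17 in CR and 10 and 15 in FM (exact permutation p = 0.333). When only the strongest 17447 peaks per library were used, the ratio of peak numbers turned to 0.839. The peaks of the loci covered 15514 and 13176 bp in CR and 6298 and 8913 bp in FM. The length covered by the whole lists is not given here, so this difference is not set against the genome.

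**Figure D1:**
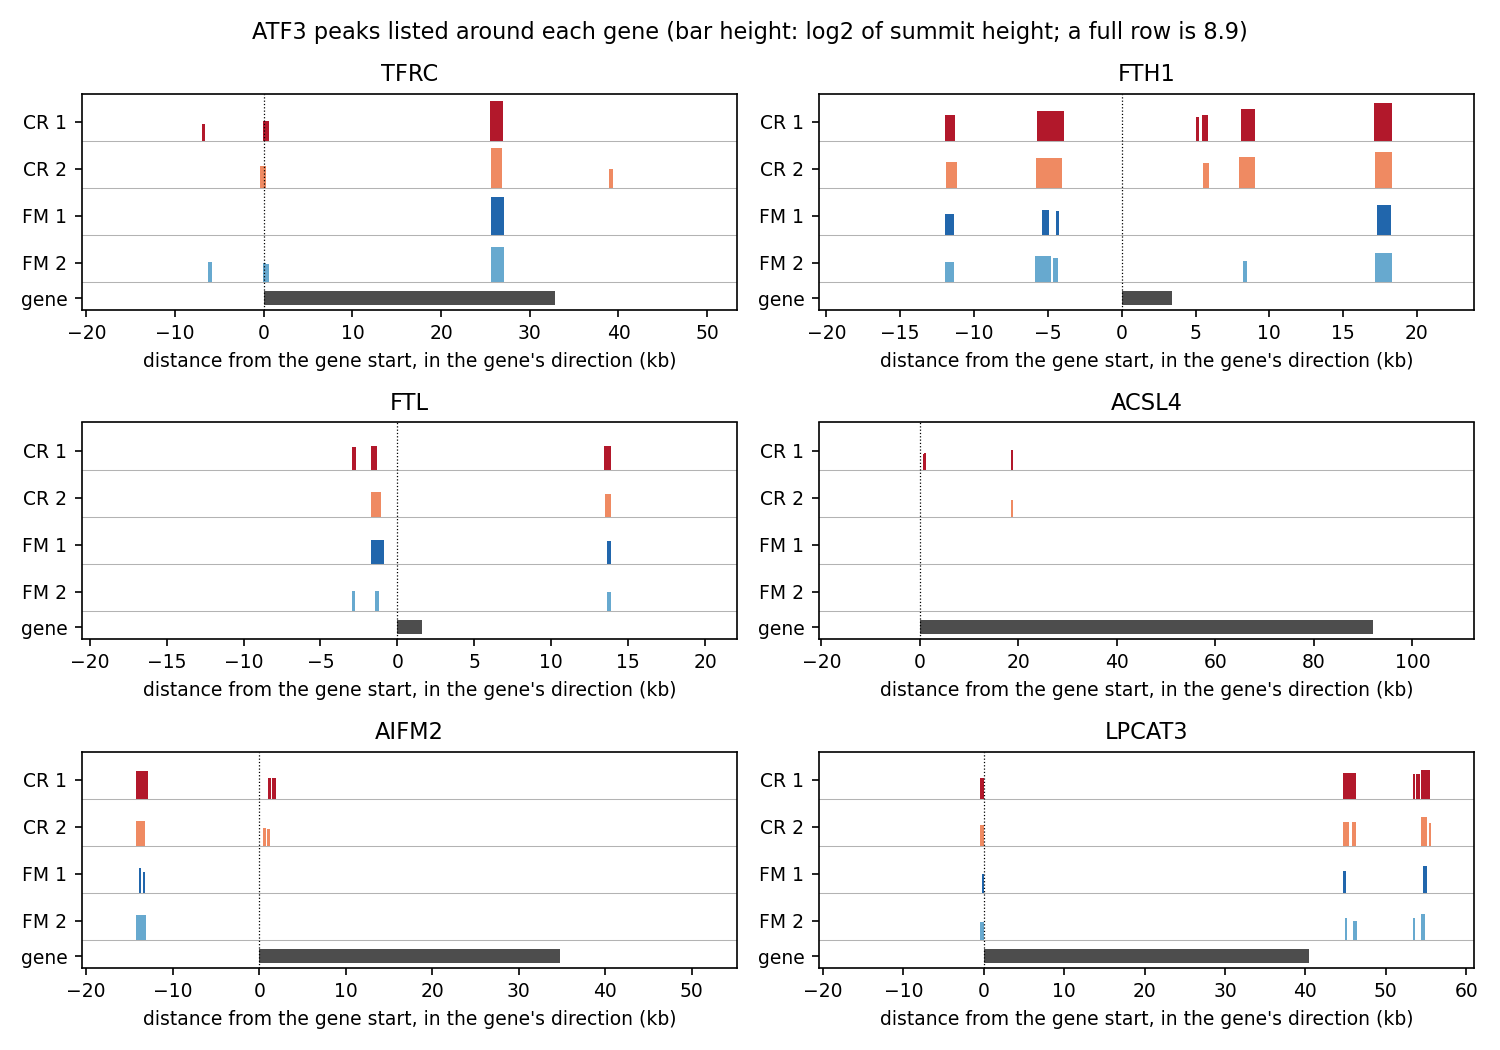
Peaks listed around each gene in the 4 libraries, from CR replicate 1 at the top to FM replicate 2, against the distance from the gene start in kb. The bar height is the log2 summit height, bars narrower than 0.25 kb are drawn at 0.25 kb, and the gene is the dark bar; FTH1 has peaks on both sides in every library, and ACSL4 has none in FM.

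Heights were compared at regions listed in all 4 libraries, with limma on log2 height across all 10331 such regions. All 10 members were higher in CR on average (92.0% of all regions were), by 0.33 to 1.35 on the log2 scale, and 5 of the 10 passed at an adjusted p under 0.05, while 0 were called lower. Over all regions 43.2% were called higher and 0.407% lower. In each of the 10 both CR heights lay above both FM heights, as did 72.8% of all regions. The median change was 0.58 over the members and 0.53 over all regions, so the members' median lay close to that of the genome. The 5 that passed were 3 regions at FTH1, 1 in TFRC and 1 beyond LPCAT3.

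Each of these calls includes the genome-wide shift, a median change of 0.53. Each library was then centred on its own median height over these regions, which left a median change of −0.036 over all regions. After this centring 4.96% of all regions were called higher and 4.28% lower. Of the members 1, the FTH1 region 17.1 kb downstream of the start, kept its call. Regions enter this comparison only if each FM library lists them, so those with the largest relative differences can be missing from it.

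**Figure D2:**
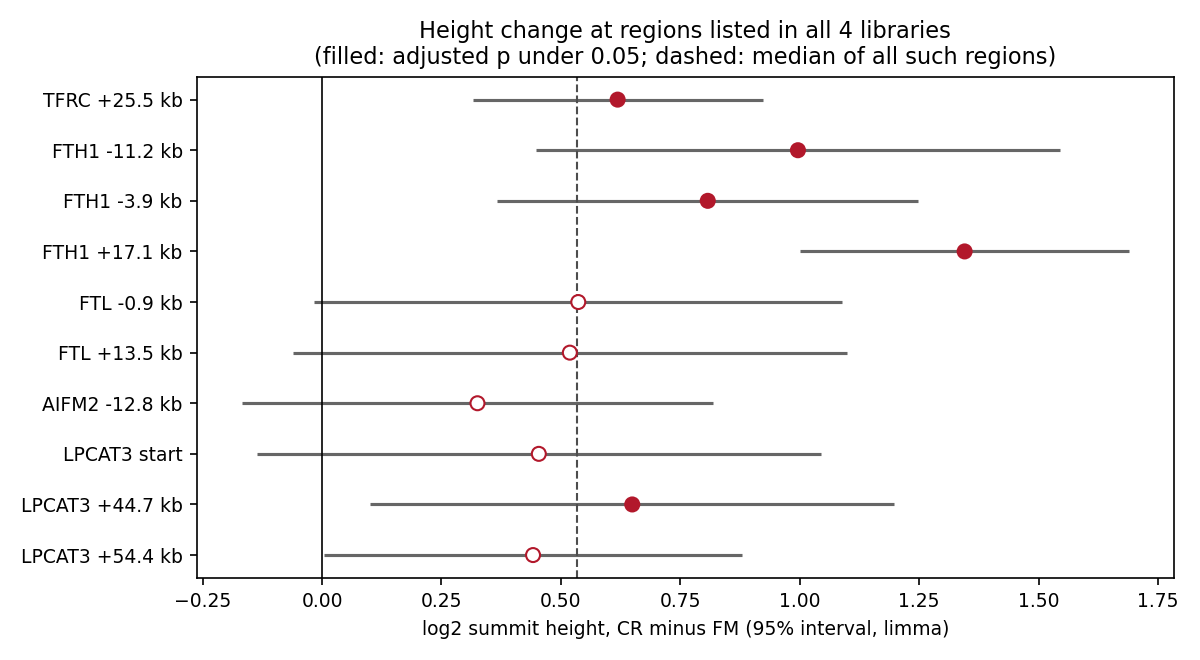
The log2 height in CR minus that in FM at the 10 member regions listed in all 4 libraries, with the limma estimate and its 95% interval. Filled points passed at an adjusted p under 0.05; the dashed line is the median of all regions, 0.53, and the FTH1 region 17.1 kb downstream is the only interval that lies wholly to its right.

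FTH1, the ferritin heavy chain with the ferroxidase activity that loads iron into the shell, had the most regions and the 3 largest changes in height over the genome background. Its gene (chromosome 11 from 61731757 to 61735132) carried no peak itself, and all 6 regions flanked it, 2 upstream and 4 downstream. In the RefSeq annotation of GRCh38 BEST1, a chloride channel gene, overlaps the end of FTH1, and RAB3IL1 follows within 20 kb, so the downstream regions cannot be given to FTH1 alone.

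The tallest FTH1 region lay 17.1 kb downstream of the start, on chromosome 11 from 61716793 to 61718010. Its summit pileup was 170 and 121 tags in CR replicates 1 and 2, against 56 and 59 tags in FM replicates 1 and 2. The summits of the libraries spanned 263 bp. The heights were 131.0 and 111.6 in CR and 50.6 and 44.8 in FM, so the lowest CR value was well above the highest FM value. The change was 2.54-fold, or 1.35 on the log2 scale (SE 0.17, adjusted p = 4.3e-08 by limma), and larger than at 97.0% of all regions. With each library centred on its own median it was 0.78 (SE 0.14, adjusted p = 0.00013 by limma).

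The caller's local background at this region was also higher in CR. It was 12.2 and 11.5 times the genome background in CR and 5.06 and 5.74 times in FM. On the deposited fold enrichment, which divides by that local background, the values were 10.15 and 9.05 in CR and 8.64 and 7.01 in FM, a change of 0.30 on the log2 scale that did not pass (adjusted p = 0.286 by limma). The call therefore holds for height over the genome background and is lost for height over the caller's local background. The caller's options are not given, and whether that background includes a peak's own tags, here or at other regions, was not tested.

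The next FTH1 region, 7.94 kb downstream (61726101 to 61727196), had 81 and 62 tags in CR, against 20 tags in FM replicate 2 and no listed peak in FM replicate 1. Its heights were 62.4 and 57.2 in CR and 15.2 in FM replicate 2. The mean CR height would correspond to 66.2 tags in FM replicate 1. The local background of FM replicate 1 was 5.60 tags at the tallest FTH1 region, and among its peaks with a local background of 5 to 7 tags the lowest listed pileup was 15 tags. This region is not among the gained ones, since 1 FM library lists it, and no test covers it.

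Closer to the end of the gene lay a gained region, 5.47 kb downstream of the start (61729194 to 61729659), with 37 and 26 tags, or heights of 28.5 and 24.0, in CR and no peak in FM. The same height in FM would be 29.0 and 34.6 tags. Among FM peaks with local backgrounds of 5 to 7 tags, the lowest listed pileups were 15 and 16 tags. The local background and level of FM at this place are not in the lists. Gained regions were also selected for being listed in CR, so their CR heights are those of chosen peaks. The summits of this region in the CR libraries were 4 bp apart. A neighbour 5.05 kb downstream was listed in CR replicate 1 alone, with 30 tags.

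Upstream of FTH1 a wide region began 3.89 kb before the start (61739026 to 61741001). Human FTH1 is known to have an antioxidant-responsive enhancer upstream of its promoter, and whether it lies in this region was not analysed here. The highest summit of each library had 61 and 51 tags in CR and 27 and 39 tags in FM. The heights were 47.00 and 47.05 in CR and 24.4 and 29.6 in FM. These summits spanned 473 bp, the most of any member listed in all 4 libraries. Both CR lists had a single peak here, of 1871 and 1741 bp, where the FM lists had 2 peaks each, covering 688 and 1381 bp. The height rose 1.75-fold (log2 0.81, SE 0.22, adjusted p = 0.0033 by limma). The local background was 9.82 and 8.99 times the genome background in CR and 5.21 and 5.01 times in FM, and on the fold enrichment the log2 change was 0.0004 (adjusted p = 0.999 by limma).

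The second upstream region, 11.2 kb before the start (61746296 to 61747107), was lower in all libraries. It had 36 and 29 tags in CR and 16 and 17 tags in FM, or heights of 27.7 and 26.8 in CR and 14.5 and 12.9 in FM. The summits of the libraries spanned 219 bp. The height rose 1.99-fold (log2 1.00, SE 0.27, adjusted p = 0.0035 by limma). Here the local background differed less, at 3.42 and 3.14 times the genome background in CR and 2.70 and 2.38 times in FM. On the fold enrichment the log2 change was 0.66 (SE 0.20), the largest of the 10 members on that scale, and it did not pass (adjusted p = 0.0671 by limma). Without CR replicate 1 the adjusted p by limma was 0.0525 for this region and 0.0553 for the one 3.89 kb upstream, against 0.00022 for the tallest.

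**Figure D3:**
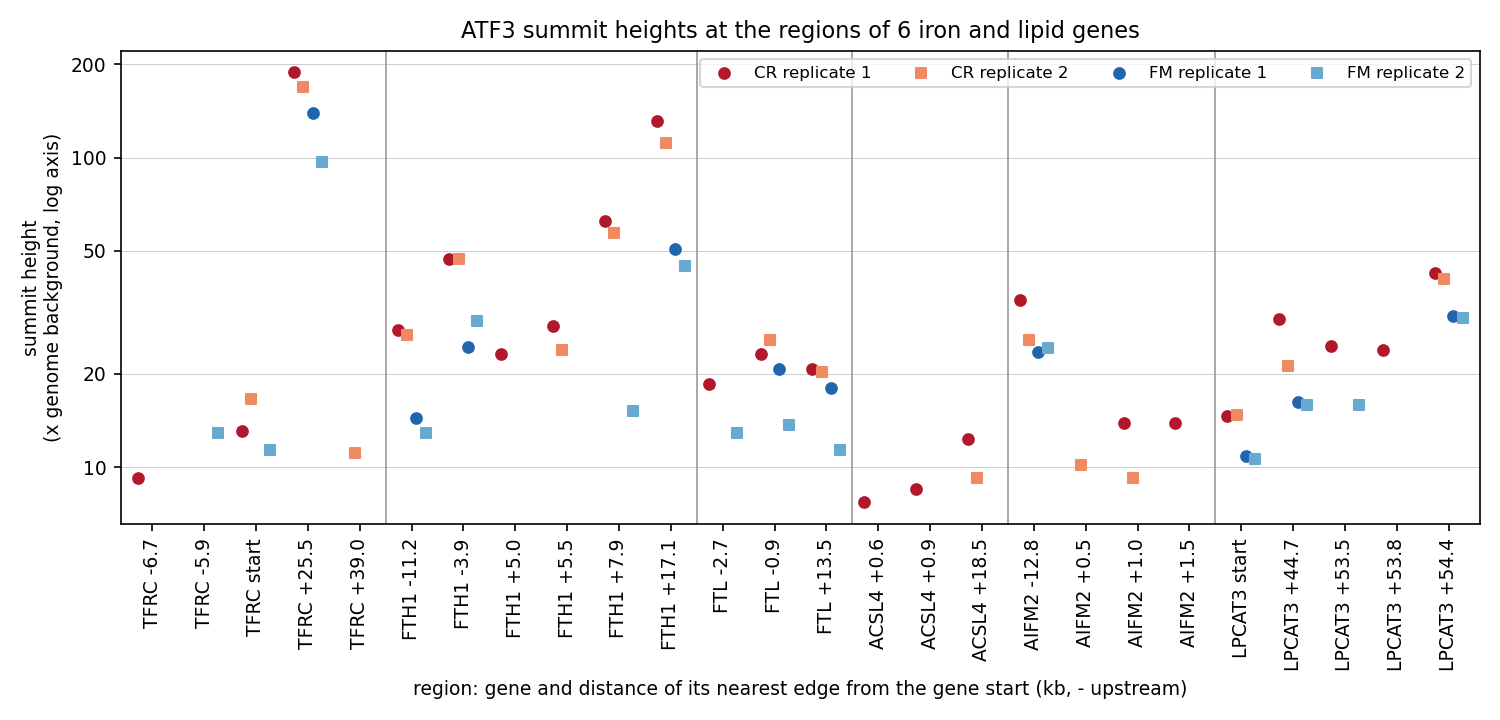
Summit heights over the genome background (log axis) at all 26 regions, by gene and distance from its start, with the CR libraries left of the FM libraries. A missing point is a library with no listed peak; the FTH1 points of CR lie above those of FM in each region that has both.

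FTL, the ferritin light chain that helps to form the iron core, had 3 regions, and the 2 listed in all libraries did not pass the test. The region nearest its start (chromosome 19 from 49466852 to 49467675) ended 891 bp upstream, with 30 and 28 tags in CR and 23 and 18 tags in FM. The heights were 23.1 and 25.8 in CR and 20.8 and 13.7 in FM, and the log2 difference was 0.54 (SE 0.28, adjusted p = 0.104 by limma). FM replicate 1 was nearer to the CR libraries than to FM replicate 2.

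The other such FTL region, 13.5 kb downstream (49482021 to 49482472), had 27 and 22 tags in CR and 20 and 15 tags in FM. Its log2 difference was 0.52 (SE 0.29, adjusted p = 0.134 by limma), and both FTL differences were close to the genome-wide median. They rested on which FM library was used: without FM replicate 1 they were 0.84 and 0.85 (adjusted p of 0.022 and 0.030 by limma), and without FM replicate 2 they were 0.23 and 0.19 (adjusted p of 0.599 and 0.705 by limma). The third region, 2.75 kb upstream, was listed in CR replicate 1 with 24 tags and in FM replicate 2 with 17 tags. In GRCh38 BAX and GYS1 lie within 20 kb of FTL.

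Set side by side, the log2 changes were 0.81 to 1.35 at the 3 FTH1 regions and 0.52 to 0.54 at the 2 FTL regions. No test between regions was made, and these ranges met under other settings: over the local background they were 0.0004 to 0.66 at FTH1 and 0.11 to 0.34 at FTL, and without FM replicate 1 they were 0.67 to 1.43 at FTH1 and 0.84 to 0.85 at FTL. The 95% intervals of the tallest FTH1 region, 1.00 to 1.69, and of the nearest FTL region, −0.02 to 1.09, overlap.

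TFRC held the tallest of the 26 regions. It lay inside the gene, 25.5 kb from the start (chromosome 3 from 195781939 to 195783496), with 245 and 183 tags in CR and 154 and 128 tags in FM. The heights were 188.8 and 168.8 in CR and 139.2 and 97.1 in FM, and in its own list each ranked above at least 98.6% of the peaks by −log10 p. The CR values were above the FM values, although FM replicates differed from each other more than FM replicate 1 differed from CR replicate 2.

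This TFRC region rose 1.54-fold (log2 0.62, SE 0.15, adjusted p = 0.0012 by limma), close to the median of all regions. After centring the difference was 0.05 (adjusted p = 0.858 by limma). By limma the call was also lost without CR replicate 1 (log2 0.54, adjusted p = 0.0716), without the trend (log2 0.62, adjusted p = 0.0624) and on the fold enrichment (log2 0.20, adjusted p = 0.378). The change was 0.36 without FM replicate 2 and 0.88 without FM replicate 1, both of which passed (adjusted p of 0.0304 and 6.14e-09 by limma). Its summits were within 97 bp in the 4 libraries.

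The region over the TFRC start (195808442 to 195809407) was far lower. It had 17 and 18 tags in CR, 15 tags in FM replicate 2 and no listed peak in FM replicate 1, that is heights of 13.1 and 16.6 in CR and 11.4 in FM replicate 2. The summits lay at 85 and −25 bp from the start in CR replicates 1 and 2 and at 70 bp in FM replicate 2, where negative means upstream. The promoter printed above ends at the RefSeq start of GRCh38, and whether its TGACG word falls in the hg19 peak was not analysed here. The remaining TFRC regions had 12 to 17 tags in a single library each, CR replicate 2 for the one beyond the gene, FM replicate 2 for one 5.88 kb upstream and CR replicate 1 for one 6.66 kb upstream.

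ACSL4, the acyl-CoA synthetase that prefers arachidonic acid, had no listed FM peak in its 132.1 kb window, the widest of the 6. In CR a gained region lay inside the gene, 18.5 kb from the start (chromosome X from 108957721 to 108958106), with 16 and 10 tags and heights of 12.3 and 9.23. The same mean height would give 11.9 and 14.2 tags in FM, where peaks with a local background under 1.5 tags are listed from 7 tags on. Its summits in the CR libraries were 259 bp apart. Both other ACSL4 regions, 0.638 and 0.948 kb inside the gene, were 150 bp wide and listed in CR replicate 1 alone, with 10 and 11 tags.

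By −log10 p the gained ACSL4 peak ranked above 64.7% of the list in CR replicate 1 and above 35.8% in CR replicate 2. The regions 0.638 and 0.948 kb inside the gene ranked above 22.6% and 32.2% in CR replicate 1. Peaks of at most 10 tags made up 13.4% and 24.1% of the CR lists and 16.0% and 15.8% of the FM lists. Sites below the caller's limit have no value in the lists, and so the FM level at ACSL4 is not known.

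LPCAT3, the acyltransferase that puts polyunsaturated chains into phosphatidylcholine, had 5 regions, 1 over its start and 4 beyond its end. The start region (chromosome 12 from 7125812 to 7126363) was listed in all 4 libraries, with 19 and 16 tags in CR and 12 and 14 tags in FM. The heights were 14.6 and 14.8 in CR and 10.8 and 10.6 in FM, with libraries of a medium close to each other. The log2 difference of 0.45 (SE 0.29) did not pass (adjusted p = 0.196 by limma). All 4 summits lay before the start, at −131 and −72 bp in CR replicates 1 and 2 and at −92 and −83 bp in FM replicates 1 and 2.

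Of the regions beyond LPCAT3, that 44.7 kb from the start (7079426 to 7081191) had 39 and 23 tags in CR and 18 and 21 tags in FM. It rose 1.57-fold (log2 0.65, SE 0.27, adjusted p = 0.0491 by limma). The call was lost when any library was left out: the change was 0.40 without CR replicate 1 and 0.90 without CR replicate 2 (adjusted p of 0.437 and 0.0508 by limma), and 0.66 without FM replicate 1 and 0.63 without FM replicate 2 (adjusted p of 0.0645 and 0.112 by limma). Its summits fell within 3 bp in the 4 libraries.

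The tallest LPCAT3 region, 54.4 kb from the start (7070228 to 7071475), had 55 and 44 tags in CR and 34 and 40 tags in FM, or heights of 42.4 and 40.6 in CR and 30.7 and 30.3 in FM. Its log2 difference was 0.44 (SE 0.22, adjusted p = 0.0908 by limma). Beside it, peaks of 31 and 32 tags were listed in CR replicate 1, and the second of these had 21 tags in FM replicate 2. In GRCh38 EMG1 overlaps the end of LPCAT3 and PHB2 and PTPN6 follow within 20 kb, so these regions lie among several genes.

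AIFM2 had a cluster of weak CR peaks just inside the gene and a stronger region upstream. The gained region, 0.953 kb from the start (chromosome 10 from 71891389 to 71891737), had 18 and 10 tags in CR, or heights of 13.9 and 9.23, and none listed in FM. On its sides a region 1.46 kb inside had 18 tags in CR replicate 1, and a region 0.517 kb inside had 11 tags in CR replicate 2. No FM peak was listed inside AIFM2. The mean CR height of the gained region would be 12.8 and 15.2 tags in FM. Listed FM peaks at a local background of 2 to 3 tags, that of these regions in CR, start at 9 tags. The local background and level of FM at this place are not in the lists. The gained peak of CR replicate 2 had a −log10 q of 2.27, the lowest of any member peak.

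The upstream AIFM2 region, 12.8 kb before the start (71905521 to 71906984), had 45 and 28 tags in CR and 26 and 32 tags in FM. The heights were 34.7 and 25.8 in CR and 23.5 and 24.3 in FM, so that CR replicate 2 was close to the FM libraries. The log2 difference of 0.33 (SE 0.25) was the smallest of the 10 and did not pass (adjusted p = 0.269 by limma). It was 0.11 without CR replicate 1 and 0.54 without CR replicate 2 (adjusted p of 0.827 and 0.206 by limma). Its summits fell within 4 bp. TYSND1, SAR1A and MACROH2A2 lie within 20 kb of AIFM2 in GRCh38.

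**Figure D4:**
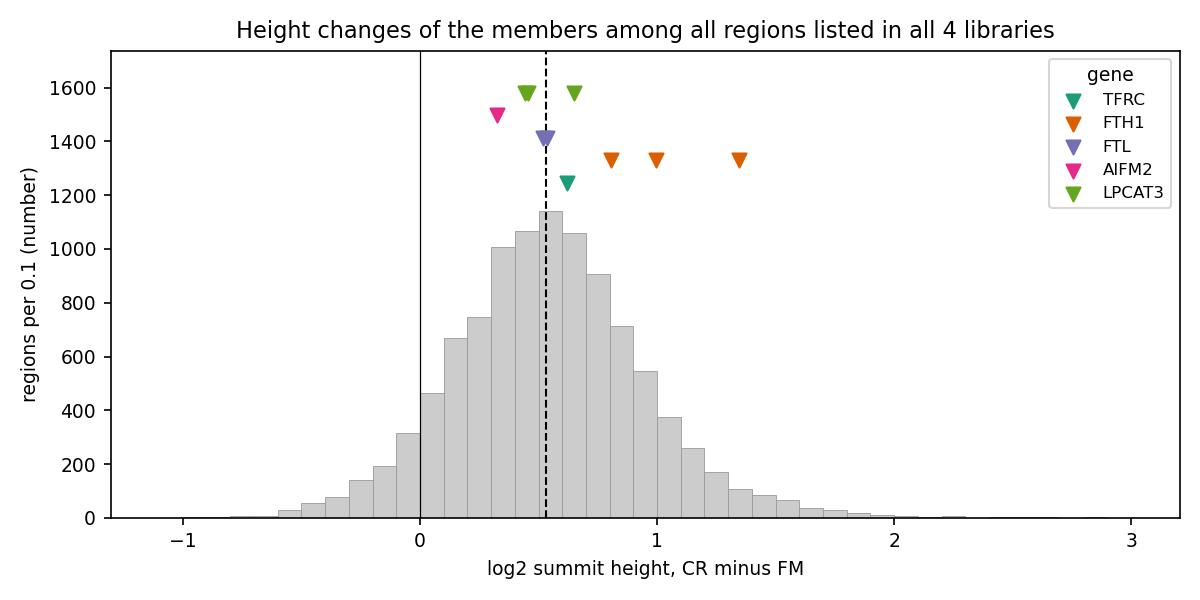
Number of regions listed in all 4 libraries by their log2 height change, CR minus FM, with the 10 members as triangles by gene. The 3 FTH1 regions, at 0.81, 1.00 and 1.35, lie to the right of the dashed median of 0.53, and AIFM2, at 0.33, to its left.

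Of the 10 regions listed in all libraries, 6 had a difference above the genome-wide median and 4 below it, and after centring both CR heights stood above both FM heights in 2 of 10, against 23.2% of all regions. The libraries of a medium differed at these regions by a median of 0.11 log2 units in CR and 0.17 in FM, in absolute terms. Over all regions these medians were 0.21 and 0.25, and single members reached 0.50 in CR and 0.67 in FM. Gained regions were found at FTH1, ACSL4 and AIFM2, 1 each, and the FTH1 one was the tallest of the 3 over the genome background. Its deposited fold was the lowest of the 3, at 3.09 and 2.65 in CR replicates 1 and 2. That of ACSL4 was 7.40 and 5.28, and that of AIFM2 was 4.77 and 3.51.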

How the data were processed

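ATF3 CUT&Tag libraries of SW480 cells, 2 per medium, were used as deposited peak lists, called for each library separately. The submitters' processing notes name MACS2 2.2.7.1, BWA 0.7.17, fastp 0.19.7, bcl2fastq 2.17 and the build hg19. No source used here gives the caller's options. The deposited fold enrichment is a ratio of summit pileup to local background, the deposited −log10 p and −log10 q are per peak, and the deposited score is 10 times the −log10 q. These are the authors' own values within a list.

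The summit pileup and background were recovered from the deposited fold, read as (pileup + 1)/(background + 1), and from the Poisson −log10 p. A whole number matched within 0.1% for 100% of peaks in each list. The lowest background of a list, proportional to its depth, scaled the heights. Where a region held several peaks of a library, the highest pileup was taken. No-antibody libraries were not used here.

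Log2 heights were fitted with limma 3.58.1 (R 4.3.3, eBayes with trend, Benjamini-Hochberg over all regions listed in all 4 libraries). Peak numbers were compared by exact permutation. The scripts ran under Python 3.11.15 with pandas 2.3.3, scipy 1.17.1 and numpy 2.4.6. The number of merged regions was the same with bedtools 2.31.1. Recovery and limma were tested on simulated data. Gene extents are those of hg19, and strands are from RefSeq (FTH1 from general knowledge).

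All 26 regions are counted; described in full are each gene's tallest region, the one nearest its start, gained ones and those with the largest and smallest change, and the others were added for completeness. The members and lists were chosen with earlier results of these data known. Alternatives tried were a minimum −log10 q of 5, equal numbers of top peaks, a reciprocal overlap of 50%, 0, 5 or 50 kb around the genes, each library left out, the replicate block, the top 1% of regions left out, other scalings, a pseudocount of 5 and no trend. A wider list of ferroptosis genes and sequences under the peaks need an hg19 annotation and genome and were not analysed here.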

Additional observations from a re-analysis of the deposited data

How the results depend on the processing

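The ratio of peak numbers at the loci stayed above 1 in all alternatives but equal numbers of top peaks (0.839), with 1.11 to 1.75 when a library was left out and 1.38 with the replicate block. Gained regions, 3 in the main count, numbered 1 at a minimum −log10 q of 5, 0 with equal numbers, 5 with a reciprocal overlap of 50%, 3 to 9 with a library left out, and 13 and 5 within same-numbered pairs 1 and 2 (replicate block), where fewer libraries are required. Lost regions, 0 in the main count, numbered 0 to 1 with a library left out and 3 within pair 2. Regions in all 4 libraries, 10 in the main count, numbered 6 at the stricter q, 5 with reciprocal overlap, 2 within 0 kb and 5 within 5 kb of the genes, fewer bases being searched in these last cases, and 10 to 12 with a library left out. Height calls, 5 in the main fit, numbered 3 with reciprocal overlap, 1 within 0 kb, 3 within 5 kb, 1 to 7 with a library left out (the lone library of a medium is then assumed to vary like the others; 1 without CR replicate 1), 1 after centring, 3 without the trend, and 0 over the local background, where limma gave 1 at an unadjusted p under 0.05. The replicate block left 5 calls; deviations of same-numbered libraries correlated at 0.01, and 2 numbers are too few to pair them. The median member change was 0.0091 after centring and 0.20 over the local background, and 0.44 to 0.75 with a library left out. After centring, the tallest regions of FTL, AIFM2 and LPCAT3 turned to −0.032, −0.24 and −0.13. Over all regions the calls numbered 4503 in the main fit, 954 after centring, 515 over the local background and 1858 to 5544 with a library left out. For the other changes named here the cause was not tested. Depth limits the weak regions, as no list holds a pileup under 6 tags.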
